A study of Mus musculus with 12 samples.

Results

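The contrast described here is CT22 against CT10 in the hippocampus of mice that lack NONO (knockout, KO). Its members were taken from the sample titles: 3 KO libraries labelled CT22 and 3 KO libraries labelled CT10, which are 6 of the 12 libraries of the series. The other 6 are wild-type (WT) libraries with the same CT labels, 3 of each. The mice were adult and of strain C57BL/6, every library was made from total RNA of the hippocampus with a stranded mRNA kit, and no treatment is named for either genotype. The labels give the genotype as NONO KO, and how the allele was made and in which cells it acts are not given in the sources used here. CT is commonly short for circadian time in this field, and the labels do not spell it out. The labels do not state whether the 3 libraries under each genotype and CT label were made from different mice, and a p-value here covers the spread among libraries, which could be technical.

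NONO is an RNA-binding protein of the DBHS family, with SFPQ and PSPC1 as its relatives, and it is known to bind PERIOD proteins of the circadian clock. In the mammalian clock, BMAL1 (gene Arntl) and CLOCK activate genes that carry E-boxes, among them the Per, Cry, Nr1d and Dbp genes. PER and CRY proteins repress that activity, NR1D1 and NR1D2 repress Arntl and Nfil3, and DBP and NFIL3 act in opposite directions at D-box elements. Transcripts of these genes are known to cycle over the day in many tissues, the hippocampus among them.

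Promoters are shown for 3 clock genes whose WT libraries at CT10 and CT22 did not overlap and whose window held an E-box or D-box. Timeless, with a D-box, also met both conditions and is not shown. The sequences come from RefSeq on build GRCm38.p6, run 5′ to 3′ on the strand of the gene, and cover 250 bases before to 50 bases after its start. They lie at chr3:95882179-95882478 on the minus strand for Ciart (Gm129 in the deposited files), chr4:151044616-151044915 on the minus strand for Per3, and chr10:85185005-85185304 on the minus strand for Cry1. Capitals mark an E-box (CACGTG) or a D-box (TTATGNAA, either strand).
Ciart: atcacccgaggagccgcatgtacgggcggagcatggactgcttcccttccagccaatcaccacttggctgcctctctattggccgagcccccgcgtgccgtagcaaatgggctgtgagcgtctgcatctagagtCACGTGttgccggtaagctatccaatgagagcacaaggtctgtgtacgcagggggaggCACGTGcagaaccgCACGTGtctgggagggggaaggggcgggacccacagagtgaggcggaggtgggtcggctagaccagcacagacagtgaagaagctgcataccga
Per3: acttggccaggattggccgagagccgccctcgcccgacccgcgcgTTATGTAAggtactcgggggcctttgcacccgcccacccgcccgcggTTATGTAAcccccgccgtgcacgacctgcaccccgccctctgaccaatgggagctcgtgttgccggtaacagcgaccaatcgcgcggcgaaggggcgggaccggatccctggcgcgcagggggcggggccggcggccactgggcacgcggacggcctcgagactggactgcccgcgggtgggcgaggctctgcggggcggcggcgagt
Cry1: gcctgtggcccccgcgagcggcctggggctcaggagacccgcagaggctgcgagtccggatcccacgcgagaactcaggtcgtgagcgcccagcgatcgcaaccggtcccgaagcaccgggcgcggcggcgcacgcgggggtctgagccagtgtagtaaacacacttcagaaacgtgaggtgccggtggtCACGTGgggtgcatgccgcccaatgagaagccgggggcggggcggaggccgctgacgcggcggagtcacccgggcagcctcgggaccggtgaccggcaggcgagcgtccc
The Ciart window held 3 E-boxes, the Per3 window 2 D-boxes and the Cry1 window 1 E-box. Of the 28 clock genes tested, 22 matched the promoter table, with 31 windows, and a gene was counted when any of its windows held the motif. By that count 5 of the 22 held an E-box (Bhlhe41, Cry1, Ciart, Per1 and Tef) against 8.09% of all 27025 genes in the table. A D-box was held by 3 (Per1, Per3 and Timeless) against 3.99% of all genes, and the ROR element was held by 1 (Arntl) against 2.87%. Of all 32851 single windows of the same length, 7.15%, 3.38% and 2.46% held the E-box, the D-box and the ROR element. None of the matches shown overlapped another. The windows of Dbp, Nr1d1, Nr1d2 and Nfil3 held none of the 3 motifs.

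The 12 libraries held between 4435596 and 10911031 assigned counts, and the KO libraries between 4435596 (CT22 replicate 2) and 10111046 (CT22 replicate 1). Nono was counted 0, 1 and 2 times in the KO CT10 libraries and 2, 3 and 4 times in the KO CT22 libraries, against 1147 to 1814 times in the WT libraries. Markers of hippocampal neurons were present in every KO library, with summed levels of 640 to 1066 CPM (read counts scaled to library size, with TMM factors) for 10 CA1 markers and 732 to 1538 CPM for 18 dentate granule markers. All CPM values below are on this scale. In these bulk samples, fewer cells of a type and less RNA per cell cannot be told apart.

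Clock genes placed 2 KO libraries on the side opposite to their CT label. Of the 28 clock genes tested, 11 had WT groups that did not overlap (Per2, Per3, Cry1, Nr1d1, Nr1d2, Gm129, Nfil3, Dbp, Csnk1d, Csnk1e and Timeless), and 16.2% of all genes tested had such WT groups. The midpoint between the WT group means was used as the border for each of the 11. The 11 counted equally, though the WT log2 change was only -0.05 for Csnk1d and 0.15 for Timeless, against -1.12 for Gm129. For Per2, 5 of the KO libraries lay on the CT22 side. Among the KO CT10 libraries, replicate 1 lay on the CT22 side for 2 of the 11 genes, replicate 2 for 4 and replicate 3 for 8. Among the KO CT22 libraries, replicate 1 lay on the CT22 side for 3 of the 11, replicate 2 for 10 and replicate 3 for 9. The KO CT10 replicate 3 and KO CT22 replicate 1 libraries are therefore out of place by clock genes, and the labels were kept as given. Values without both, which leaves 2 KO libraries at each CT label, are given for the clock genes described, and for the other gene lists and their members where the log2 change moves by more than 0.15. The 11 genes picked these libraries by their WT direction, so for them a value without both is a description only, and its likeness to WT is built in. For the other clock genes such a value is also a description only, since clock genes picked the libraries.

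**Figure D1:**
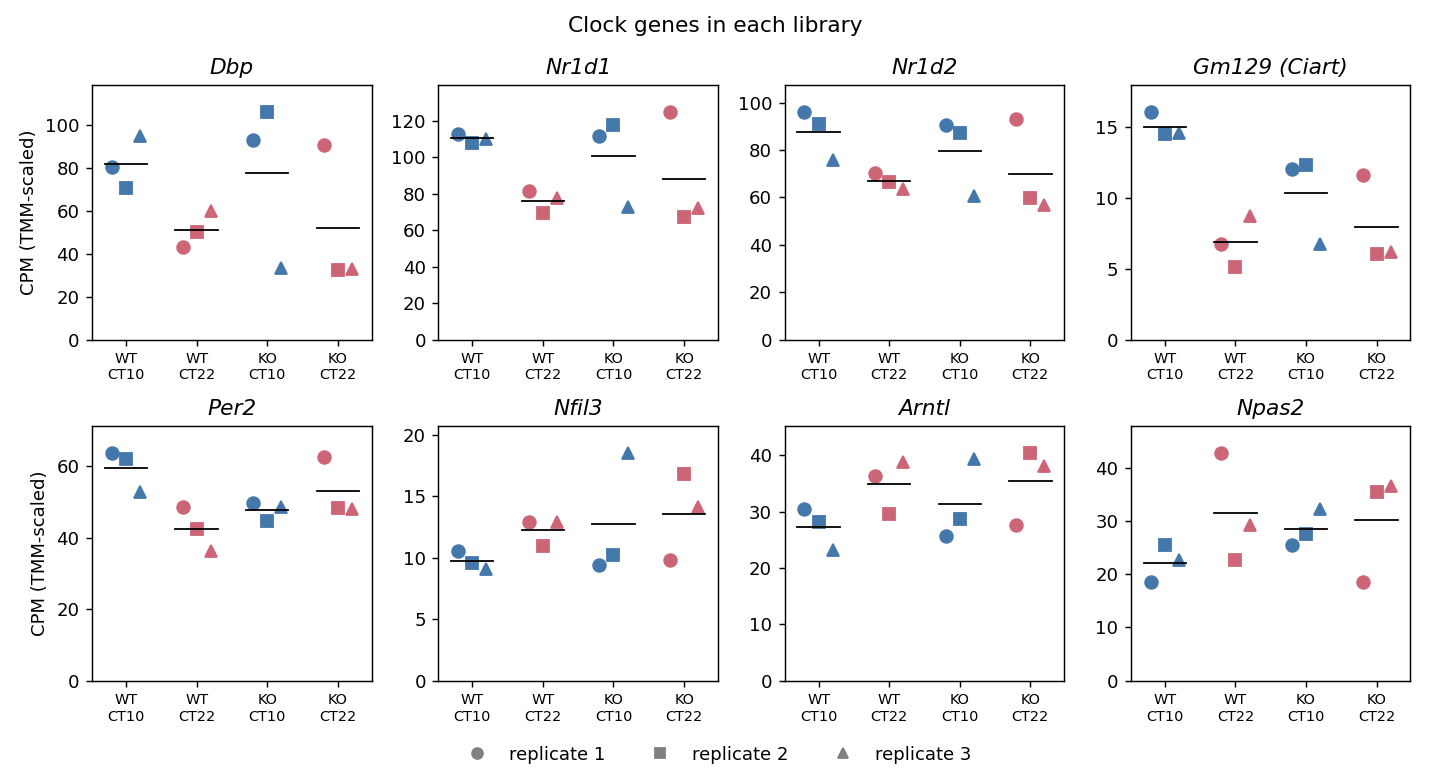
Level of 8 clock genes (CPM, linear axis from 0) in each of the 12 libraries by group, with the symbol giving the replicate number and the line the mean of 3 libraries. In Dbp, Nr1d1, Nr1d2 and Gm129 the KO CT10 library marked by a triangle sits with the low CT22 libraries, and the KO CT22 library marked by a circle sits with the high CT10 libraries.

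Dbp, a PAR bZIP transcription factor and a direct output of the clock, showed this split widely. Its level was 93.0, 106 and 33.5 CPM in KO CT10 replicates 1 to 3 and 90.9, 32.3 and 32.9 CPM in KO CT22 replicates 1 to 3. Thus 3 KO libraries lay at 33.5 CPM or below and the other 3 at 90.9 CPM or above, with both kinds under each CT label. The WT libraries ranged from 70.5 to 95.1 CPM at CT10 and from 43.4 to 60.2 CPM at CT22. The log2 change of Dbp from CT10 to CT22 was -0.54 (SE 0.50) in KO and -0.67 in WT. Without the 2 libraries out of place the KO value was -1.61, which is a description only, since Dbp was among the genes that placed them.

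The nuclear receptors Nr1d1 and Nr1d2, repressors of Arntl transcription, showed the same arrangement of libraries. Nr1d1 stood at 112, 118 and 72.6 CPM at KO CT10 and at 125, 67.0 and 72.4 CPM at KO CT22. Nr1d2 stood at 90.7, 87.1 and 60.8 CPM at KO CT10 and at 93.1, 59.6 and 56.9 CPM at KO CT22. For both genes the groups overlapped because CT10 replicate 3 was low and CT22 replicate 1 was high. Gm129, the repressor CIART, stood at 12.03, 12.3 and 6.74 CPM at KO CT10 and at 11.6, 6.05 and 6.16 CPM at KO CT22, so that its 3 low libraries were again 1 of CT10 and 2 of CT22. The log2 changes as labelled were -0.17 (SE 0.23) for Nr1d1, -0.17 (SE 0.19) for Nr1d2 and -0.33 (SE 0.28) for Gm129. The WT values were -0.54, -0.39 and -1.12. Without the 2 libraries the KO values were -0.71, -0.61 and -0.99, a description only, since all 3 genes were among those that placed them.

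Nfil3, the repressor that opposes DBP, ran the other way, with 9.45, 10.2 and 18.5 CPM at KO CT10 and 9.83, 16.8 and 14.1 CPM at KO CT22. Its log2 change was 0.06 (SE 0.24) as labelled, 0.64 without the 2 libraries that it helped to place and 0.33 in WT. Arntl, the gene of BMAL1, was not among the 11 placing genes, though Nr1d1 and Nr1d2, whose products repress it, were. It stood at 25.8, 28.8 and 39.4 CPM at KO CT10 and at 27.7, 40.4 and 38.2 CPM at KO CT22. The libraries high in Arntl were thus CT10 replicate 3 and CT22 replicates 2 and 3, which were the libraries low in Dbp and Nr1d1. Npas2, a partner of BMAL1 that can stand in for CLOCK, was at 25.4, 27.6 and 32.2 CPM at KO CT10 and at 18.6, 35.4 and 36.6 CPM at KO CT22. The log2 changes were 0.16 (SE 0.18) for Arntl and 0.07 (SE 0.28) for Npas2, and 0.53 and 0.45 without the 2 libraries. In WT they were 0.36 and 0.51.

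Of the Per genes, which encode the PERIOD repressors, Per2 did not follow this split and Per3 did. Per2 was at 49.7, 44.8 and 48.5 CPM at KO CT10 and at 62.7, 48.2 and 48.1 CPM at KO CT22, so that only CT22 replicate 1 stood apart. In WT it was at 52.8 to 63.5 CPM at CT10 and at 36.3 to 48.5 CPM at CT22. Its log2 change was 0.16 (SE 0.13) in KO and -0.49 in WT, and the difference between genotypes had an unadjusted p of 0.00266 and an adjusted p of 0.729 (edgeR's quasi-likelihood test). The KO value of Per2 was 0.02 without the 2 libraries. Per1 had a log2 change of 0.12 (SE 0.10) in KO, 0.16 without the 2 libraries and -0.21 in WT, with an adjusted p of 0.729 for the difference. Per3 was at 65.3, 53.6 and 46.0 CPM at KO CT10 and at 68.8, 48.0 and 39.9 CPM at KO CT22, so that its 3 lowest libraries were those low in Dbp. The Per3 log2 change was -0.07 (SE 0.17) as labelled, -0.45 without the 2 libraries and -0.21 in WT. Cry1, which encodes the partner repressor, stayed between 12.6 and 17.9 CPM in all 6 KO libraries, with a log2 change of -0.06 (SE 0.14) as labelled, 0.07 without the 2 libraries and 0.19 in WT.

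None of the 28 clock genes had KO groups that did not overlap, and none passed the threshold in the KO contrast as labelled. Over all genes tested, 4.69% had every CT22 library above every CT10 library, 3.27% had every one below, and 0% passed the threshold. With shares this low, a count of none does not set the clock genes apart. The 7 activators had a median log2 change of 0.11 (6 higher, 1 lower), the 11 repressors -0.06 (5 higher, 6 lower), the 3 PAR bZIP outputs -0.03 (1 higher, 2 lower) and the 7 kinases and turnover factors 0.05 (5 higher, 2 lower). The activator median depended on single libraries. It was -0.015 without KO CT10 replicate 2 (3 higher, 4 lower), 0.03 without KO CT10 replicate 1, 0.32 without KO CT10 replicate 3 and 0.45 without the 2 libraries out of place (7 higher). Without each library in turn the medians ranged from -0.08 to -0.0039 for the repressors, from -0.10 to 0.04 for the PAR bZIP outputs and from 0.02 to 0.08 for the kinases and turnover factors. Clock stood at 0.11 with all libraries and at 0.16 without the 2. The sign of the log2 change matched that in WT for 20 of the 28 clock genes with all libraries, and for 20 without the 2. The share over all genes is not given here, so these counts do not set the clock genes apart. The count without the 2 is also partly built in, since 11 of the 28 picked these libraries by their WT direction. On a per-length scale, Tef was the most abundant of the PAR bZIP genes, with 254 TPM (the deposited length-scaled level) at KO CT10, and Dbp stood at 118 TPM and Hlf, the other family member, at 58.8 TPM.

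Over the whole transcriptome, no gene of the 13820 tested passed the threshold between CT22 and CT10 in KO. With edgeR's quasi-likelihood test and Benjamini-Hochberg adjustment 0 genes passed an adjusted p of 0.05 (0%), and the smallest adjusted p was 0.976. At an unadjusted p under 0.05 there were 458 genes (3.31%), of which 292 were higher and 166 lower at CT22. DESeq2 also called 0 genes and had 357 at an unadjusted p under 0.05. All 3 CT22 libraries lay above all 3 CT10 libraries for 648 genes (4.69%) and below them for 452 (3.27%). The median absolute log2 change was 0.10 against a median SE of 0.14, and 50.8% of genes had a value above 0.

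The same contrast in WT also called 0 genes (0%), with 933 at an unadjusted p under 0.05 (6.75%), 465 of them higher, and 51.5% of genes above 0. The difference of the CT effect between KO and WT called 0 genes (0%), with 852 at an unadjusted p under 0.05 (6.16%), and nothing is called particular to KO here. Across the 13820 genes, the KO and WT log2 changes, which share no library, had a Pearson correlation of -0.03. Without the 2 libraries out of place it was 0.21 over 13782 genes, which are not independent replicates, and since WT directions picked these libraries this value is a description only. The KO contrast without them called 1 gene (0.00726%), which was Dbp and is no independent call, because Dbp helped to pick the libraries left out, with 1026 genes at an unadjusted p under 0.05 (7.44%) and 50.1% of genes above 0. The median spread within a group was an SD of 0.15 log2 CPM at KO CT10 and 0.16 at KO CT22, against 0.11 and 0.15 in WT.

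Of the genes whose KO groups did not overlap, the 10 with the smallest unadjusted p in each direction are given as values, not as calls. The 10 higher at CT22 had log2 changes from 0.26 to 0.68 and unadjusted p from 0.00184 to 0.00551. Zic2, a zinc finger transcription factor of neural development, stood at 11.6, 11.1 and 10.5 CPM at CT10 and at 16.7, 15.9 and 18.7 CPM at CT22, a log2 change of 0.64 (SE 0.17). Sfpq, the DBHS partner of NONO in splicing and in nuclear paraspeckles, stood at 166, 165 and 186 CPM at CT10 and at 201, 208 and 209 CPM at CT22, a log2 change of 0.26 (SE 0.08). In both genes, as in all 10 by the rule that picked them, every CT22 library was above the highest CT10 library. On build mm10, per the deposited gene positions, Zic2 lies at chr14:122475384-122480328, Sfpq at chr4:127021301-127037014 and Dbp, above, at chr7:45705247-45710203. In WT the Sfpq log2 change was -0.09, and the difference between genotypes had an unadjusted p of 0.00673 and an adjusted p of 0.729. Sfpq was picked by its KO values, which enter this difference, so a low unadjusted p is partly built in.

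Slit3, a secreted axon guidance ligand of ROBO receptors, was at 80.6, 68.1 and 71.5 CPM at KO CT10 and at 92.4, 92.4 and 91.2 CPM at KO CT22, a log2 change of 0.32 (SE 0.10) against -0.15 in WT. Mef2c, a neuronal transcription factor, was at 103, 87.1 and 117 CPM and then at 154, 120 and 124 CPM at CT22, and CT10 replicate 3 lay just under CT22 replicate 2. Among chromatin and RNA regulators, Arid1a, a subunit of the BAF remodelling complex, had a log2 change of 0.32 (SE 0.10), Spen, an RNA-binding corepressor, 0.35 (SE 0.11), and the nuclear protein gene Ylpm1 0.35 (SE 0.10). Akap9, a large scaffold that anchors protein kinase A, stood at 0.40 (SE 0.12), Fam123a, whose product binds APC and is now named Amer2, at 0.55 (SE 0.17) and Loxl3, a lysyl oxidase relative, at 0.68 (SE 0.21). All 10 had an adjusted p of 0.976. In WT 3 of the 10 were higher at CT22.

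The 10 lower at CT22 had log2 changes from -0.96 to -0.23 and unadjusted p from 0.00646 to 0.0129. Fkbp1b, whose product binds ryanodine receptors, was at 30.3, 41.1 and 34.3 CPM at KO CT10 and at 24.8, 25.3 and 27.2 CPM at KO CT22, a log2 change of -0.45 (SE 0.14). Fabp5, a fatty acid binding protein, was at 110, 129 and 99.0 CPM and then at 92.0, 88.6 and 94.1 CPM. Atic, an enzyme of purine synthesis, was at 30.8, 36.7 and 34.0 CPM and then at 29.9, 24.9 and 26.5 CPM, and CT10 replicate 1 lay just above CT22 replicate 1. Its log2 change was -0.31 (SE 0.11) in KO and 0.25 in WT, with an unadjusted p of 0.00237 and an adjusted p of 0.729 for the difference. Atic too was picked by its KO values, so a low unadjusted p for the difference is partly built in. Gnb5, a G protein beta subunit that pairs with RGS proteins, stood at -0.23 (SE 0.08), Ociad2 at -0.28 (SE 0.10), D6Wsu163e at -0.28 (SE 0.10) and Ttc30b, of intraflagellar transport, at -0.39 (SE 0.14). Tbata stood at -0.47 (SE 0.17), the glycolytic enzyme gene Pgam2 at -0.59 (SE 0.20) and the adhesion receptor gene Gpr115 at -0.96 (SE 0.33), the last from 1.33 to 3.81 CPM only. In WT 6 of the 10 were lower at CT22.

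**Figure D2:**
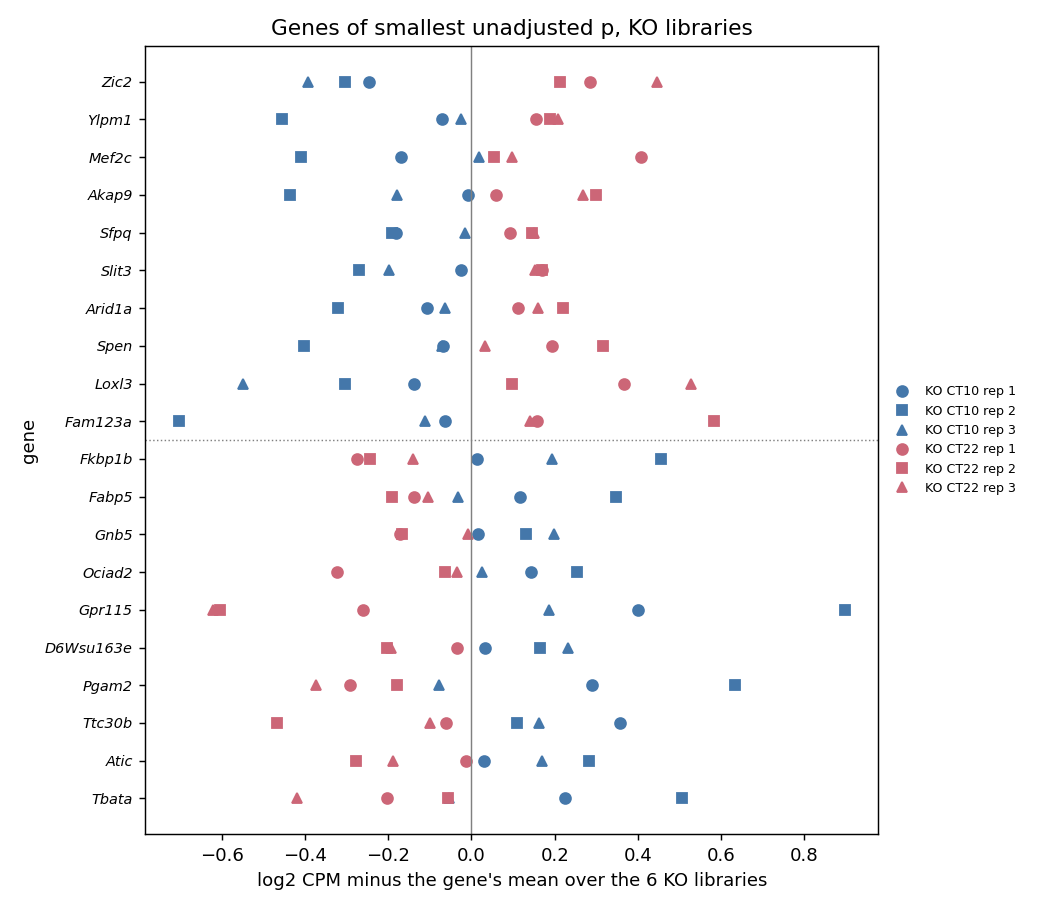
The 20 genes of smallest unadjusted p among those whose KO groups did not overlap, one row per gene, as log2 CPM minus the mean of the gene over the 6 KO libraries. Blue marks CT10, red CT22, and KO CT10 replicate 2 (blue square) is the CT10 library farthest from CT22 for 8 of the 10 higher and 7 of the 10 lower genes.

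KO CT10 replicate 2 also stood apart by transcript length. Sequencing was paired-end or single-end per the labels, which tie neither layout to a library, and the part of read layout was not tested. With the 13820 genes in 5 equal groups by the longest deposited transcript, its median level relative to the mean of all 12 libraries was 0.15 in the shortest group (147 to 1701 bases) and -0.15 in the longest (4801 to 83437 bases), in log2 units. The other 5 KO libraries lay between -0.11 and 0.0038 in the shortest group and between 0.03 and 0.12 in the longest. The median log2 change from CT10 to CT22 in KO rose over the 5 groups from -0.08 to 0.11, and the share of genes above 0 from 30.2% to 82.1%, while in WT the medians ran from 0.08 to -0.06. Without KO CT10 replicate 2 the KO medians were -0.01 in the shortest and 0.04 in the longest group, and without the 2 libraries out of place they were -0.08 and 0.12. The 10 higher genes above had a median length of 5711.5 bases and the 10 lower genes 2000 bases, against 2964 bases for all genes tested. Without KO CT10 replicate 2 the log2 change was 0.63 for Zic2, 0.22 for Sfpq, 0.27 for Slit3, 0.26 for Mef2c, 0.23 for Ylpm1, -0.33 for Fkbp1b and -0.26 for Atic. The part of transcript length in the values of these genes was not tested.

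**Figure D3:**
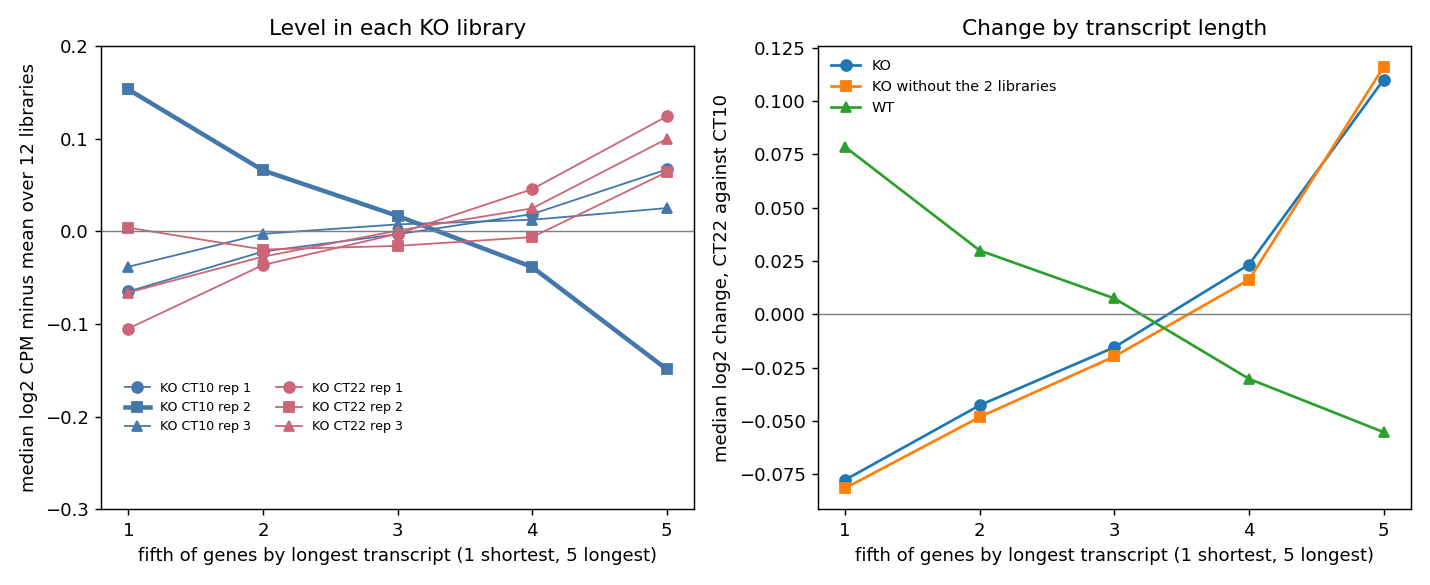
Left, median log2 level of 5 equal groups of genes by longest transcript in each KO library, relative to the mean of all 12 libraries; right, median log2 change from CT10 to CT22. KO CT10 replicate 2 (thick line) falls from 0.15 to -0.15 with length, and the KO change rises from -0.08 to 0.11 while the WT change falls from 0.08 to -0.06.

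The 80 cytosolic ribosomal protein genes tested, structural parts of the ribosome with a median length of 693.5 bases, had a median log2 change of -0.12, with 75 lower and 5 higher at CT22. The 80 genes of oxidative phosphorylation, the respiratory chain and ATP synthase of mitochondria with a median length of 679 bases, had a median of -0.14, with 75 lower and 5 higher. Over all genes 50.8% were higher. The medians were -0.01 and -0.04 without KO CT10 replicate 2, -0.19 and -0.13 without the 2 libraries out of place, and 0.09 and 0.08 in WT, and no member of either list passed the threshold. Rpl3, a core protein of the large subunit, was at 536, 633 and 529 CPM at KO CT10 and at 543, 503 and 496 CPM at KO CT22. Atp5b, the catalytic subunit of ATP synthase, was at 1286, 1510 and 1371 CPM and then at 1220, 1193 and 1302 CPM. In both genes replicate 2 was the highest CT10 library.

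Markers of hippocampal cell types varied most through single KO libraries. All 18 dentate granule markers tested had log2 changes above 0, with a median of 0.19, and the median was -0.14 without KO CT22 replicate 1 alone (3 higher, 15 lower) and -0.13 without the 2 libraries out of place (5 higher, 13 lower). C1ql3, a secreted synaptic protein gene of granule cells, stood at 146, 136 and 155 CPM at KO CT10 and at 221, 122 and 152 CPM at KO CT22, so that CT22 replicate 1 alone was high, and its log2 change went from 0.19 (SE 0.16) to -0.04 without the 2 libraries. The same library had the lowest summed level of the 10 CA1 markers, at 640 CPM against 849 to 1066 CPM in the other 5 KO libraries, and of the oligodendrocyte markers. Nov, a CA1 marker, was at 86.7, 115 and 129 CPM at KO CT10 and at 24.2, 126 and 167 CPM at KO CT22, a log2 change of -0.08 (SE 0.65), and 0.55 without the 2 libraries. CA1 markers had a median log2 change of -0.09 (3 higher, 7 lower), and 0.16 without the 2 libraries. Without single libraries the CA1 median ran from -0.31 (KO CT22 replicate 3 left out) to 0.02 (KO CT10 replicate 3 left out).

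Oligodendrocyte markers, the genes of the myelin sheath, were lower at CT22 for 15 of 15 members, with a median log2 change of -0.27 and no member past the threshold. Mbp, the myelin basic protein gene, was at 2900, 3156 and 2332 CPM at KO CT10 and at 1528, 3252 and 2730 CPM at KO CT22, a log2 change of -0.16 (SE 0.29), so that only CT22 replicate 1 was under the CT10 range. The summed level of the list was 3818 CPM in that library and 5826 to 7935 CPM in the other 5. Without KO CT22 replicate 1 alone the list median was -0.05 (6 higher, 9 lower). It was -0.45 without KO CT22 replicate 3, -0.17 without the 2 libraries out of place (4 higher, 11 lower) and 0.09 in WT. Microglia markers, genes of the resident immune cells of the brain, were lower for 16 of 19 members, with a median of -0.13 in KO and -0.0027 in WT. Their KO median was -0.06 without KO CT10 replicate 2 (4 higher, 15 lower), -0.09 without KO CT22 replicate 3 and -0.19 without the 2 libraries out of place. Among them Cx3cr1, the fractalkine receptor gene, was at 64.7, 64.3 and 61.5 CPM and then at 57.3, 53.8 and 59.0 CPM, a log2 change of -0.16 (SE 0.09), and Ctss, a lysosomal protease gene, stood at -0.26 (SE 0.11).

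Markers of tissue around the hippocampus were uneven among the KO libraries. The summed level of 15 choroid plexus markers, genes of the epithelium that makes cerebrospinal fluid, was 3641, 174 and 363 CPM at KO CT10 and 95.3, 533 and 3904 CPM at KO CT22. Ttr, the transthyretin gene and the most abundant of them, was at 3308, 134 and 294 CPM and then at 54.6, 443 and 3455 CPM, so that 1 library of each CT label was high. The list median was 0.31 (13 higher, 2 lower), -2.0 without KO CT22 replicate 3 and 2.42 without KO CT10 replicate 1. Meningeal markers summed to 932, 409 and 943 CPM at KO CT10 and 905, 1124 and 1494 CPM at KO CT22, with 17 of 18 higher and a median of 0.60. That median was 0.33 without KO CT22 replicate 3 (14 higher, 4 lower), 0.36 without KO CT10 replicate 2 and 0.87 without the 2 libraries out of place. Ptgds, the prostaglandin D synthase gene, had a log2 change of 0.70 (SE 0.42), and 1.13 without the 2 libraries. Striatum markers (9 of 10 higher, median 0.46) and thalamus and habenula markers (15 of 15 higher, median 0.30) were highest in KO CT22 replicate 3, with summed levels of 370 and 334 CPM against 186 to 249 and 185 to 212 CPM in the other 5. Without that library the medians were 0.09 and 0.02, and Penk, the enkephalin gene of striatal neurons, went from 0.55 (SE 0.40) to -0.10. Without the 2 libraries out of place the medians were 0.98 for striatum and 0.65 for thalamus and habenula markers, and Penk stood at 1.03. With the choroid plexus level of each library as a covariate the KO contrast called 0 genes in edgeR, with 428 at an unadjusted p under 0.05, and the log2 change of Sfpq was 0.26 and that of Zic2 0.63. The part of the other markers in the KO contrast was not tested.

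**Figure D4:**
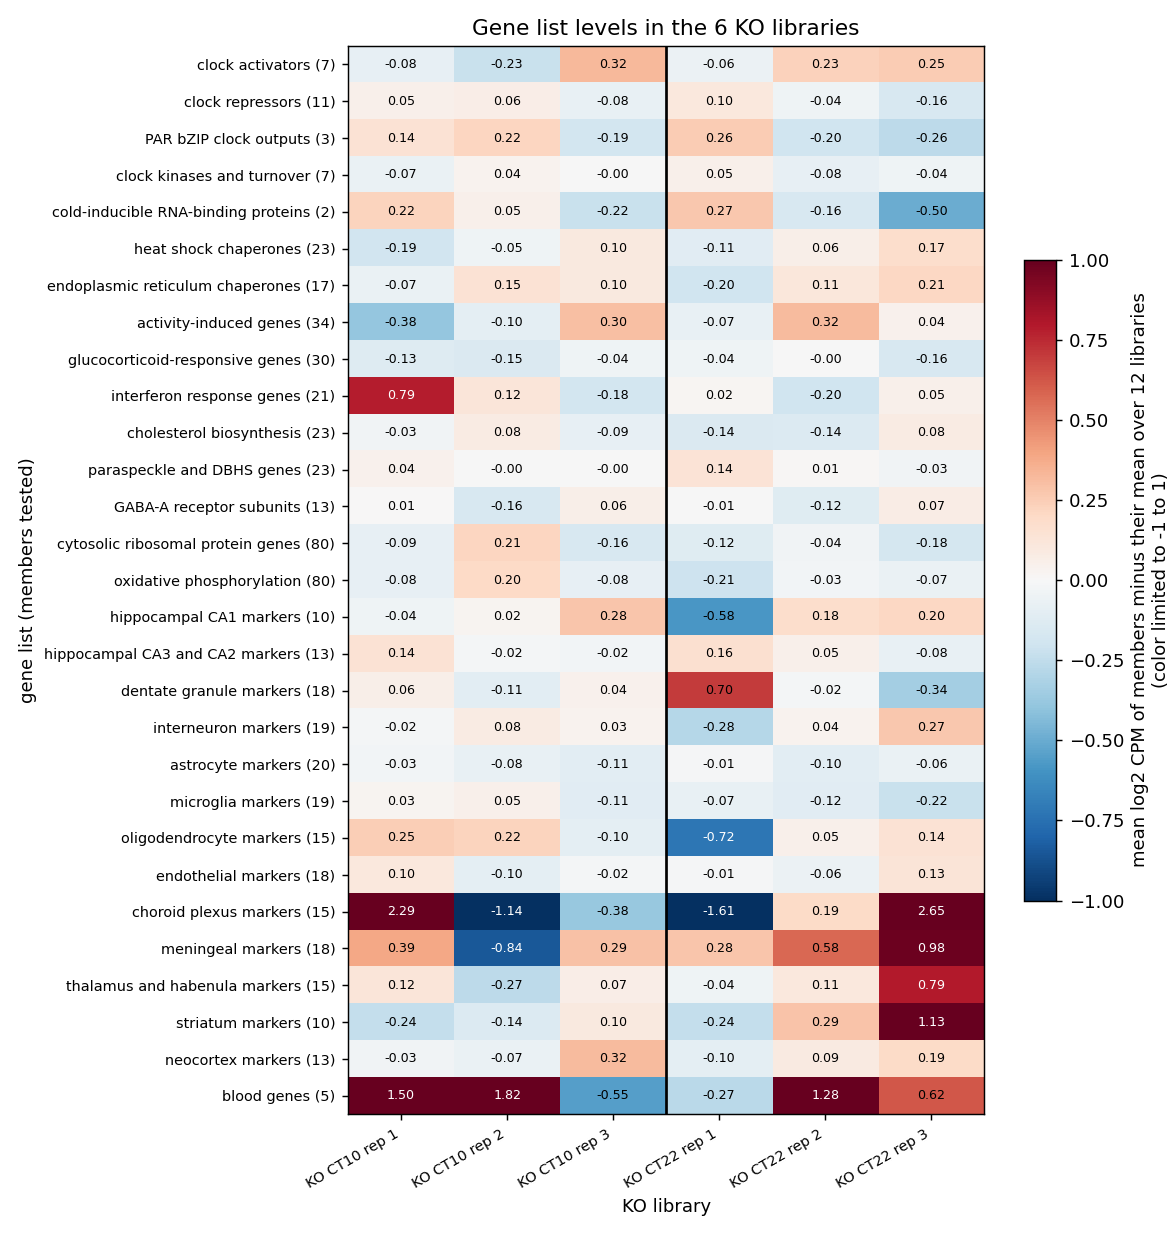
Level of 29 gene lists in the 6 KO libraries, as the mean log2 CPM of the members relative to their mean over all 12 libraries; red is higher, blue lower, the number of members tested stands in parentheses, and the color ends at 1 and -1 while the printed values do not. Choroid plexus markers are highest in KO CT10 replicate 1 (2.29) and KO CT22 replicate 3 (2.65), dentate granule markers in KO CT22 replicate 1 (0.70), and interferon response genes in KO CT10 replicate 1 (0.79).

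Genes induced by neuronal activity, such as the immediate early genes, were higher at CT22 for 27 of 34 members, with a median log2 change of 0.12 and no member past the threshold. Arc, which encodes a synaptic plasticity protein, was at 114, 182 and 328 CPM at KO CT10 and at 197, 330 and 175 CPM at KO CT22, a log2 change of 0.16 (SE 0.37), and 0.77 without the 2 libraries out of place. Egr1, an immediate early transcription factor, ranged from 106 to 219 CPM at KO CT10 and from 150 to 222 CPM at KO CT22, a log2 change of 0.20 (SE 0.23), and 0.65 without the 2 libraries. For both genes the CT10 libraries spanned more than the difference between the group means. The list median was -0.01 without KO CT10 replicate 1, which was the lowest of the 6 (1301 CPM summed), 0.01 without KO CT22 replicate 2, 0.07 without KO CT10 replicate 2, 0.24 without KO CT10 replicate 3, 0.22 without KO CT22 replicate 1, 0.37 without the 2 libraries out of place and 0.07 in WT.

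Genes that respond to glucocorticoid hormone had 19 of 30 members higher in KO (median 0.09) and 10 of 30 higher in WT (median -0.12). The difference between genotypes had an unadjusted p under 0.05 for 8 of the 30, against 6.16% of all genes, and an adjusted p under 0.05 for none. The list was chosen with earlier results of these data known, so a higher share may be built in. It is a description only. Klf9, a transcription factor induced by the hormone, was at 159, 138 and 158 CPM at KO CT10 and at 202, 157 and 135 CPM at KO CT22, whereas in WT it was at 185 to 197 CPM at CT10 and at 122 to 155 CPM at CT22. Its log2 change was 0.12 (SE 0.13) in KO and -0.49 in WT, and the adjusted p of the difference was 0.729. Sgk1 and Tiparp, named after their values were seen, had log2 changes of -0.09 and 0.13 in KO and of -0.87 and -0.64 in WT, each with an adjusted p of 0.729 for the difference. In KO the Klf9 groups overlapped through CT22 replicate 1, and without the 2 libraries out of place its value was -0.03 and the list median 0.0050. Mt1, a metallothionein gene, was at 261, 286 and 255 CPM and then at 238, 254 and 188 CPM in KO, a log2 change of -0.24 (SE 0.18).

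Rbm3 and Cirbp, RNA-binding proteins that rise when body temperature falls, were at their lowest in the KO libraries low in Dbp. Rbm3 was at 85.0, 71.0 and 62.0 CPM at KO CT10 and at 91.8, 55.2 and 46.8 CPM at KO CT22, and Cirbp was at 58.8, 55.4 and 43.4 CPM and then at 58.1, 53.4 and 39.2 CPM. The log2 changes were -0.16 (SE 0.25) and -0.07 (SE 0.16) as labelled, -0.63 and -0.32 without the 2 libraries, and -0.44 and -0.13 in WT. Both were higher without KO CT22 replicate 3 alone, with a median of 0.06 in place of -0.11, and the median was 0.18 without KO CT10 replicate 1 and KO CT22 replicate 3, the libraries highest in choroid plexus markers at each CT label. Endoplasmic reticulum chaperones, which fold secreted proteins, had 5 of 17 members higher (median -0.02) as labelled, 15 of 17 higher (median 0.16) without the 2 libraries and 14 of 17 higher (median 0.15) in WT. Their summed level was lowest in KO CT22 replicate 1, at 1790 CPM, and highest in KO CT22 replicate 3, at 2432 CPM, and without these libraries in turn the median was 0.09 and -0.11. Heat shock chaperones had 15 of 23 members higher, with a median of 0.05, 18 of 23 higher with a median of 0.15 without the 2 libraries, and medians of -0.04 without KO CT10 replicate 1 and -0.04 without KO CT22 replicate 3. Hspa8, which encodes the constitutive HSC70, was at 1703, 2173 and 2377 CPM and then at 1701, 2014 and 2312 CPM, a log2 change of -0.05 (SE 0.12), and 0.16 without the 2 libraries.

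Interferon response genes were lower for 18 of 21 members, with a median log2 change of -0.37, and summed to 238 CPM in KO CT10 replicate 1 against 146 to 168 CPM in the other 5. Without that library their median was 0.03 with 10 members higher and 10 lower, and without the 2 libraries out of place it was -0.53. Paraspeckle and DBHS genes had 13 of 23 members higher (median 0.03), and Pspc1, the other DBHS relative, named after its values were seen, was at 56.1, 68.8 and 59.0 CPM and then at 60.6, 54.7 and 58.0 CPM. GABA-A receptor subunits, which form inhibitory chloride channels, had 8 of 13 higher (median 0.04). Cholesterol synthesis genes had a median of -0.05 (9 of 23 higher), astrocyte markers -0.01 (10 of 20), interneuron markers -0.03 (6 of 19), endothelial markers -0.02 (9 of 18), CA3 and CA2 markers 0.01 (8 of 13) and neocortex markers 0.01 (8 of 13). As single KO libraries were left out, the median of each of these lists from paraspeckle to neocortex genes took both signs. Without the 2 libraries out of place it was 0.20 for GABA-A subunits, 0.14 for interneuron markers and 0.27 for neocortex markers. Blood genes, with only 5 members tested, had a median of -0.42 (1 higher, 4 lower). It stayed below 0 without each library in turn, from -0.75 (KO CT10 replicate 3 left out) to -0.25 (KO CT10 replicate 2 left out), and was -0.715 without the 2 libraries out of place.

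**Figure D5:**
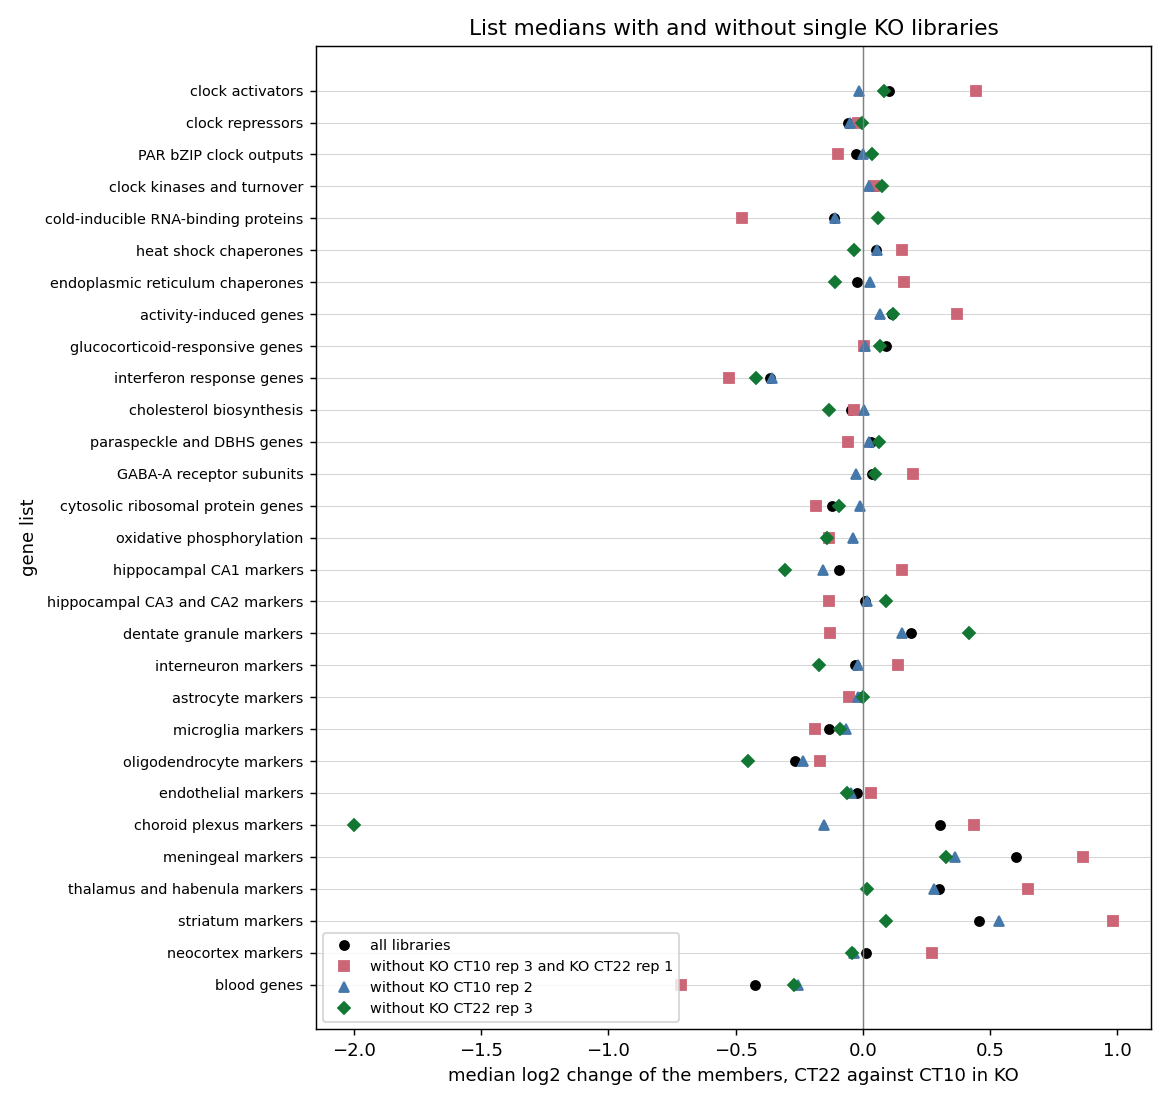
Median log2 change from CT10 to CT22 in KO for each gene list, with all libraries (circles), without the 2 libraries out of place by clock genes (squares), without KO CT10 replicate 2 (triangles) and without KO CT22 replicate 3 (diamonds). Dentate granule markers go from 0.19 to -0.13 without the 2 libraries, ribosomal protein genes from -0.12 to -0.01 without KO CT10 replicate 2, and choroid plexus markers from 0.31 to -2.0 without KO CT22 replicate 3.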

How the data were processed

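Estimated counts per transcript were deposited for each of the 12 libraries, with TPM values beside them, per the file headers. The submitters' processing notes name RSEM 1.2.5, TopHat 1.3.3, edgeR 3.0.6 and FastQC, with build mm10, and the sources used here do not say whether strand was used in counting. Per the labels' protocols reads were paired-end or single-end, with neither layout tied to a library. The deposited counts were summed by gene symbol and rounded to whole numbers. The deposited TPM values were summed by symbol and averaged over the libraries of a group. Genes passing filterByExpr (minimum count 10) in the 6 KO libraries were tested, and the fit used all 12 libraries with 4 group means and 8 residual degrees of freedom. The test was edgeR 4.0.16's robust quasi-likelihood test with TMM scaling and Benjamini-Hochberg adjustment over all genes, at a threshold of 0.05. DESeq2 1.42.0 was an alternative, and the scripts were tested on simulated data. Log2 levels by library used a prior count of 2. Floors of 3 counts correspond to 0.275 to 0.676 CPM over the libraries and cover counting error only. The genes named were the clock genes, the 10 genes in each direction with the smallest unadjusted p among genes of at least 2 CPM whose groups did not overlap, and up to 4 members of highest CPM in each other list, except where the text says that a gene was named after its values were seen. Members and lists were chosen with earlier results of these data known, and 11 symbols stand in 2 lists (among them Rora, Dcn and Per1). Some items are not reported here. Counts of paralogs such as hemoglobin genes may be split uncertainly. The labels do not say whether a replicate number pairs KO samples, and the main fit did not pair them.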

Additional observations from a re-analysis of the deposited data

How the results depend on the processing

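The count of genes past the threshold in KO was 0 in every alternative except without the 2 KO libraries out of place, where it was 1 (Dbp, log2 change -1.61, adjusted p 0.00282 in edgeR; no independent call, since Dbp helped to pick these libraries), and 0 to 0 without each library in turn. Genes at an unadjusted p under 0.05 in KO ranged from 147 without KO CT10 replicate 2 to 1026 without the 2 libraries. In WT the count was 4 with DESeq2, 1 without the 2 KO libraries and 0 to 1 without each library in turn. The difference between genotypes called 0 genes in every alternative run. The labels do not say what a replicate number shares between CT labels. After each gene's group mean was subtracted from its log2 CPM, same-numbered KO libraries correlated at -0.03, 0.17 and -0.071 over 13103 genes. These values, with no other pairs beside them, cannot show whether the numbers pair libraries. The edgeR fit with a replicate block called 0 genes in KO, with 516 at an unadjusted p under 0.05.

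List medians moved beyond 1 SD between libraries as follows. Without the 2 libraries out of place they were 0.447 for clock activators, -0.474 for cold-inducible genes, 0.161 for endoplasmic reticulum chaperones, 0.00499 for glucocorticoid-responsive genes, -0.0571 for paraspeckle genes, 0.197 for GABA-A subunits, -0.133 for CA3 and CA2, -0.0519 for astrocyte, 0.649 for thalamus, 0.983 for striatum and 0.272 for neocortex markers. Without the KO library highest in choroid plexus markers at each CT label, chosen after seeing the data, they were 0.0706 for clock repressors, -0.0975 for heat shock chaperones, -0.199 for endoplasmic reticulum chaperones and -0.165 for cholesterol synthesis. Without each library in turn the medians ranged from -0.0324 to 0.1 for glucocorticoid-responsive genes, -0.559 to 0.0294 for interferon genes, -0.0388 to 0.0659 for paraspeckle genes, -0.151 to 0.0907 for CA3 and CA2, -0.0574 to 0.00788 for astrocyte, -0.0628 to 0.0912 for endothelial and -2 to 2.42 for choroid plexus markers.

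Single genes changed sign by more than their SE without the 2 libraries (C1ql3 -0.0359, Hspa8 0.159, Klf9 -0.0317), without KO CT22 replicate 1 (C1ql3, Cry1, Klf9) and without KO CT22 replicate 3 (Penk, Ttr). Without each library in turn these ranged from -0.0894 to 0.353 for C1ql3, -0.153 to 0.0821 for Cry1, -0.0679 to 0.242 for Klf9, -0.0974 to 0.897 for Penk and -2.35 to 2.62 for Ttr. The cause was not tested. The depth of KO CT22 replicate 2 limits genes of low count, and 3 libraries a group limit all comparisons.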

Other observations

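By size alone, 40 genes differed more than 2-fold between CT10 and CT22 in KO, 28 higher and 12 lower, and 34 of them had a mean under 5 CPM. Of the 40, 22 had groups that did not overlap, and the genes named from them here were chosen after their values were seen. Over all genes tested, 4.69% had every CT22 library above every CT10 library and 3.27% had every one below. The 40 were picked by size in this same contrast, so a higher share among them is built in. Myh11, the smooth muscle myosin heavy chain of vessel walls, was at 15.5, 10.5 and 17.3 CPM at KO CT10 and at 24.1, 53.6 and 25.1 CPM at KO CT22, a log2 change of 1.19 (SE 0.47). Slc6a12, a betaine and GABA transporter, was at 1.24, 0.46 and 1.74 CPM and then at 2.81, 3.59 and 2.78 CPM, a log2 change of 1.33 (SE 0.44). Neither passed the threshold, with an adjusted p of 0.976 in edgeR for each. Trh, the gene of thyrotropin-releasing hormone, had the highest log2 change of all genes tested, 3.49 (SE 1.64), and was at 0.11, 0 and 1.40 CPM at KO CT10 and at 0.20, 2.47 and 15.4 CPM at KO CT22, so that 1 library carried most of it.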
